A study of Mus musculus with 18 samples.

Results

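The genes described here are 52 mouse genes of ribosome biogenesis and of RNA polymerase I transcription. They were listed by name, with earlier results of these data known, so that the list is no independent choice, and each had to reach a mean of at least 1 FPKM (fragments per kilobase of transcript, scaled to the size of the library) over the 18 libraries. All 52 were found among the 23899 genes of the series table, and all 52 passed the filter, as did 11550 genes in all. Their mean levels ran from 12.1 FPKM (Noc3l) to 1704 FPKM (Npm1), so none of them passed only through 1 group.

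The libraries were made from poly(A) RNA of mouse leukaemia cells in culture, which express Cas9 and the MLL-AF9 fusion and derive from a primary mouse leukaemia. All 6 groups shared these cells and the medium, with 10 ng/ml mouse interleukin-3 and 10% serum. Of these groups, 4 carried a guide RNA against the jumonji or zinc finger domain of Jmjd1c (e12.3 or e12.4, e20.1 or e21.1), 1 carried a guide against Renilla luciferase and 1 was labelled mock, with 3 libraries each. The labels do not say which guide was aimed at which domain, what mock received or whether a group's 3 libraries came from 3 cultures. A p-value here therefore speaks only of the spread between libraries, which may be technical. JMJD1C is a jumonji-family protein of chromatin related to demethylases of histone H3 lysine 9, and Renilla luciferase is a sea pansy enzyme absent from mouse cells.

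Ribosomes are built in the nucleolus. RNA polymerase I copies the ribosomal DNA into a long precursor, small nucleolar ribonucleoproteins (snoRNPs) modify it, and large sets of assembly factors cut and fold it into the small and the large ribosomal subunit. Growing cells, leukaemia cells among them, spend much of their resources on this work, and many of its genes are known targets of the transcription factor MYC. Poly(A) libraries measure the messenger RNAs of these factors and not ribosomal RNA or ribosomes, and in bulk RNA fewer cells of a type and less RNA per cell cannot be told apart.

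MYC binds with its partner MAX to the sequence CACGTG, the E-box, and the promoters of several members hold it. The sequences that follow run from 100 bases before to 29 bases after the first transcribed base (130 bases in all, RefSeq, GRCm38.p6) and are written 5′ to 3′ on the strand of the gene with any CACGTG in capitals. The first 5 belong to members that fell against Renilla and hold it, and the last 2 (Polr1a and Nop14) to members that fell against both controls and lack it.
Wdr43 (chr17:71616115-71616244, plus strand): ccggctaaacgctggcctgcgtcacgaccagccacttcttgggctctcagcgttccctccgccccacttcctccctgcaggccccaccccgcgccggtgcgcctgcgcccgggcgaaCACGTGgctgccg
Wdr46 (chr17:33940623-33940752, plus strand): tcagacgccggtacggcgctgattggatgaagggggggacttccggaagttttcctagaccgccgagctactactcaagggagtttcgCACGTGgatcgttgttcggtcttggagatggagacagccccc
Utp18 (chr11:93885737-93885866, minus strand): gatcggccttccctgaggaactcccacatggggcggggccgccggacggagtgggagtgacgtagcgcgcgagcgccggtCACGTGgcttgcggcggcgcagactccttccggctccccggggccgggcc
Nle1 (chr11:82908366-82908495, minus strand): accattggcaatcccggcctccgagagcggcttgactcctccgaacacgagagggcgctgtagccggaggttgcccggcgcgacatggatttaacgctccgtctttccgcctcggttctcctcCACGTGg
Tsr1 (chr11:74897980-74898109, plus strand): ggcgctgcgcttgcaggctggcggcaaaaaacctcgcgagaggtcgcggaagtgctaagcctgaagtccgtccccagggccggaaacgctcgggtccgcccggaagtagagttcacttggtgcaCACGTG
Polr1a (chr6:71908953-71909082, plus strand): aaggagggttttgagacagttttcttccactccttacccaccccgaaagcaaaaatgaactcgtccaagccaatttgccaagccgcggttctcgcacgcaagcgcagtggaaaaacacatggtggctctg
Nop14 (chr5:34660119-34660248, minus strand): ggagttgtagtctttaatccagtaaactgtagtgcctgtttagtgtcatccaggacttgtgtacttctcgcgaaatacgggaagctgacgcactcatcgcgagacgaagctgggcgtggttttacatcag

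Counted from the RefSeq start, the motif lies close to the start in all 5. Its first base is 12 bases before that start in Wdr46 and 20 bases before it in Utp18. In Wdr43, Nle1 and Tsr1 the motif begins within the transcribed part. These distances depend on the start chosen. Another gene annotation begins Wdr43 at 71615895, ahead of the whole stretch shown, so its motif is not close to that start. The same annotation begins Wdr46 at 33940660, ahead of its motif, which then lies inside the gene. A promoter window of 300 bases (250 before to 50 after the start) was found for 45 of the 52 members. Of these 45, 11 held CACGTG, which reads the same on both strands (24.4%): Imp4, Ltv1, Nle1, Nop2, Pes1, Rrn3, Tsr1, Utp18, Utp20, Wdr43 and Wdr46. The same letters stand in 8.1% of the 27025 promoters of that table and in 12.2% of the tested genes that have one. The latter share is a partial one, since 8454 of the 11550 tested genes were matched to a promoter. Among the 15 members that fell against Renilla, 13 had a promoter and 5 of those held the motif (38.5%), beside 6 of 32 members that were not called (18.8%). The difference between these shares was not tested, and it rests on few calls. Of 34 alternative analyses, the calls of Tsr1, Utp18 and Nle1 held in 12, 13 and 17, and those of Wdr46 and Wdr43 in 29 and 34. The letters CCGGAA on either strand, the core of sites for ETS-family factors, stood in 22 of the 45 (48.9%), in 16.7% of all promoters and in 34.6% of the matched tested genes, and 6 members held both motifs. CCGGAA stood in 5 of the 13 members that fell (38.5%) and in 17 of the 32 that were not called (53.1%). These are matches of letters, and binding was not measured.

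Before the comparisons, some libraries stood apart over all genes. Principal component 1 (26.2% of variance) put the 6 control libraries at -35 to -14.3. It put e12.3 replicate 3 at -21.6, among the controls, e21.1 replicate 3 at -3.2 and the other guide libraries at 6.6 to 19.2. Component 2 (21.9%) put e12.3 replicate 3 and e21.1 replicate 3 at 41.1 and 49.9 and the other 16 below 0. Component 3 (13.6%) put Renilla replicate 1 and e20.1 replicate 2 at 34.3 and 33.6. Estimated depth was 20.7 to 184.0 M reads (median 32.2), which puts at least 250 reads per kilobase behind the least expressed member in the shallowest library. Jmjd1c itself stood at 64.2, 85.4 and 85.4 FPKM in Renilla, at 71.8, 77.1 and 74.5 FPKM in mock and at 42.2 to 74.4 FPKM (median 65.0) in the guide libraries. Its log2 fold change against Renilla was -0.29 (limma adjusted p = 0.19), and how far the gene was edited cannot be read from its transcript level. Of the cell type markers, 7 of 9 tested monocyte and macrophage genes rose and 4 of 6 primary granule genes fell against Renilla. Of all tested genes, 7.77% rose and 3.21% fell in that comparison. Markers of erythroid, T, megakaryocyte and stromal cells were nearly all under the filter (1 gene tested of each). The summed monocyte list stood at 184 to 242 FPKM in Renilla, 228 to 246 FPKM in mock and 313 to 587 FPKM in the guide libraries. The summed primary granule list stood at 4504 to 5431 FPKM in Renilla, 4860 to 5122 FPKM in mock and 1720 to 5069 FPKM in the guide libraries. Highest with a guide were e12.3 replicate 3 (5069 FPKM) and e21.1 replicate 3 (3877 FPKM), and the other guide libraries stood at 1720 to 3100 FPKM. The summed megakaryocyte list was lowest in the same libraries, at 2.73 and 2.62 FPKM, beside 9.54 to 15.6 FPKM in the others. All 7 tested mature neutrophil genes lay above 0 against Renilla, where 2 rose (background 7.77%), and 3 rose against mock (background 6.84%). Their summed level was 103 to 187 FPKM in Renilla, 86.9 to 116 FPKM in mock and 105 to 916 FPKM with the guides, and the 2 highest sums were 916 FPKM in the third library of e12.3 and 639 FPKM in that of e21.1. The part of these shifts in the results on ribosome biogenesis genes was not tested.

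With the 4 guides together, 15 of the 52 genes fell against Renilla and none rose, where 3.21% of all tested genes fell and 7.77% rose (limma-trend on log2(FPKM + 1), p adjusted by Benjamini-Hochberg over the whole set of tested genes and held to 0.05). The changes were small. The median log2 fold change of the 52 genes was -0.27 beside -0.03 for all tested genes, and the extremes were -0.48 (Wdr12) and 0.10 (Nop10, not called). A value below 0 was found in 51 of the 52 genes, and 36 had an unadjusted p under 0.05, all of them lower. Of all tested genes 24.4% had such a p in either direction, 1276 lower and 1540 higher. Against mock, 5 of the 52 fell and none rose, with a background of 2.16% lower and 6.84% higher. The median against mock was -0.19 beside -0.02 for all tested genes, and 50 of the 52 values were below 0. An unadjusted p under 0.05 was found for 20 of the 52, all of them lower. Among all tested genes it was found for 21.3% in either direction, 1019 lower and 1436 higher. The 5 that fell against mock also fell against Renilla: Wdr12, Tcof1, Polr1a, Nop14 and Wdr43 (1.50% of all tested genes fell against both). The 2 comparisons share the 12 guide libraries. The count of 15 rests in part on single libraries: it was 5 without Renilla replicate 1, 8 without Renilla replicate 2 and 9 without e12.4 replicate 3. Of the 15 calls, those of Wdr12, Tcof1, Wdr43 and Ubtf held without any 1 library, and the other 11 each ended without at least 1 of the Renilla libraries. The count was 22 without the 2 libraries apart on component 2, 5 without the 2 apart on component 3 and 16 without all 4. The count of 5 against mock was 2 without mock replicate 1, 2 or 3, 8 without e21.1 replicate 1, 11 without the libraries apart on component 2 and 19 without all 4. Both counts were higher with a term for the replicate number in the model, or with array weights, as given in the last section.

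**Figure D1:**
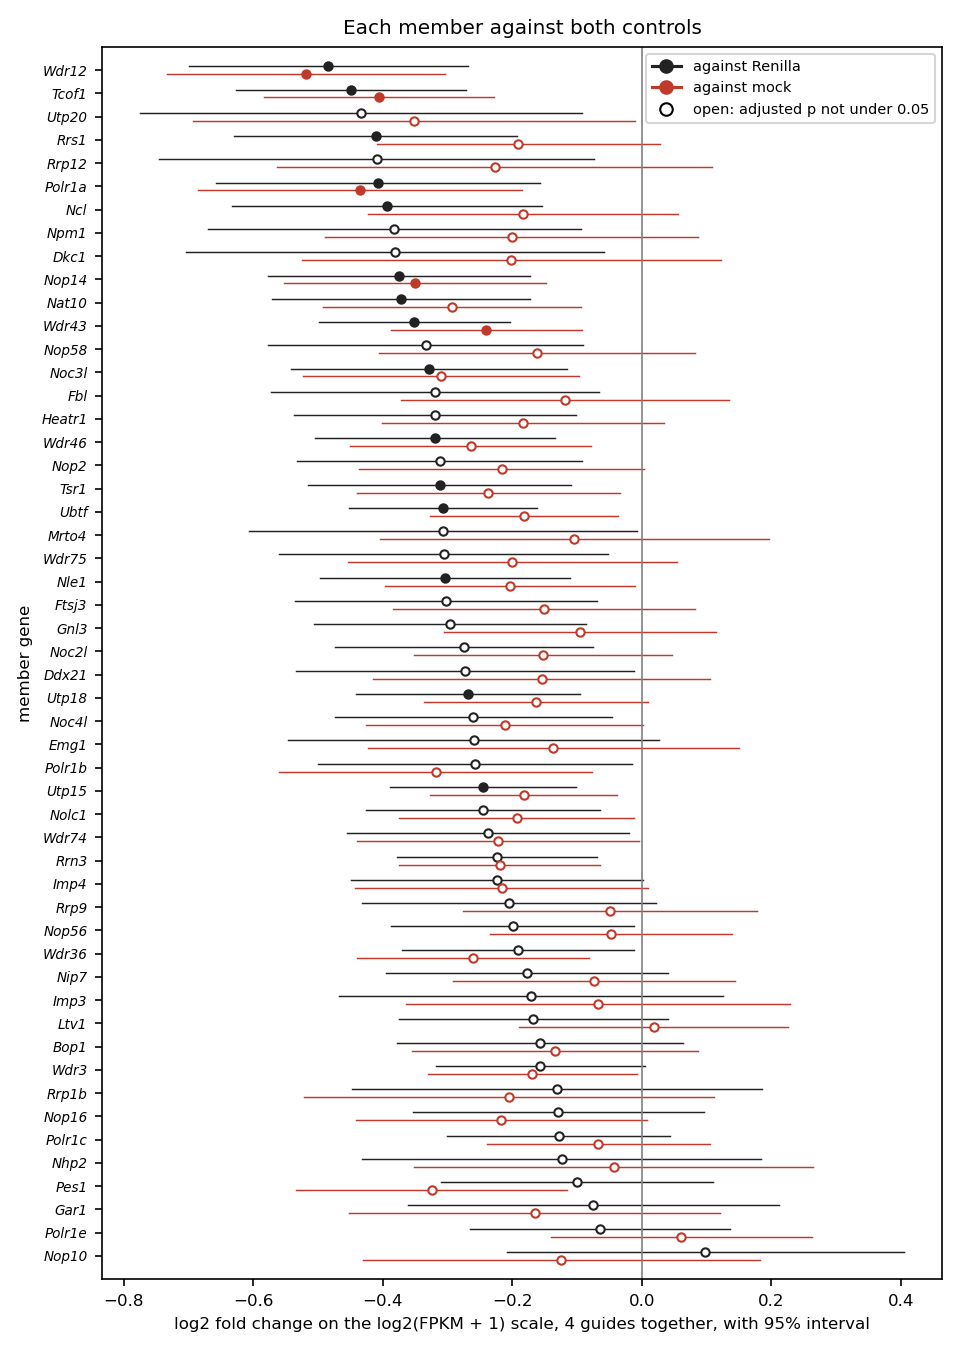
Log2 fold change on the log2(FPKM + 1) scale (x axis) of each of the 52 genes (y axis) with the 4 guides together, against Renilla (black) and against mock (red). Lines are 95% intervals from limma and filled points have an adjusted p under 0.05: 15 black and 5 red points are filled, all left of 0.

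The libraries were also compared one by one, without a model. In 19 of the 52 genes all 12 guide libraries lay below all 3 Renilla libraries, where 2.98% of all tested genes did so. For mock this held in 10 genes (background 3.41%), and in 8 genes all 12 guide libraries lay below all 6 control libraries (background 1.59%). These 8 were Polr1a, Rrn3, Wdr43, Utp15, Wdr36, Wdr46, Wdr12 and Noc3l. They cover polymerase I and both subunit pathways. None is among the 4 box C/D, the 4 box H/ACA or the 4 nucleolar scaffold, chaperone and helicase genes. With so few genes in those roles this says little, and differences between roles were not tested.

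**Figure D2:**
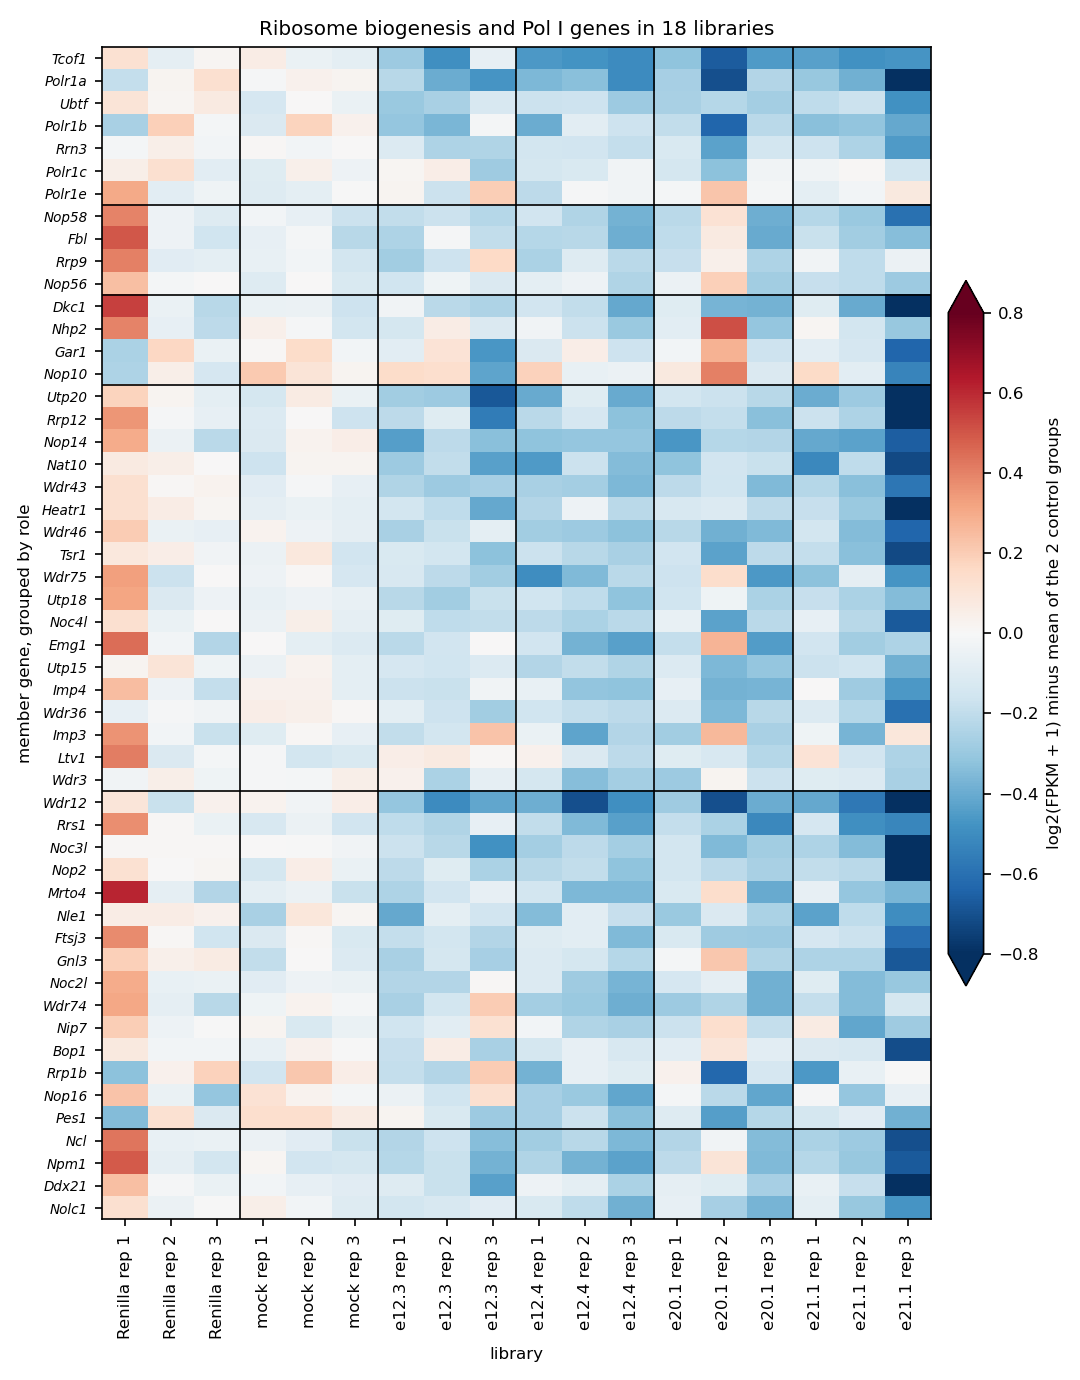
Log2(FPKM + 1) of the 52 genes (rows, grouped by role) in the 18 libraries (columns), minus the mean of the Renilla and mock groups, where blue is lower and red higher. The 12 guide columns are mostly blue, e21.1 replicate 3 is the darkest blue column and Renilla replicate 1 the reddest.

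Of the 7 genes of RNA polymerase I and its factors, 3 fell against Renilla (Tcof1, Polr1a and Ubtf) and 2 against mock (Tcof1 and Polr1a). The median log2 fold changes of the 7 were -0.26 and -0.22. Tcof1 encodes treacle, a nucleolar protein that binds polymerase I and the upstream binding factor. Tcof1 stood at 46.9, 40.9 and 43.5 FPKM in Renilla and 44.9, 41.5 and 40.8 FPKM in mock. With the guides Tcof1 stood at 34.99, 30.3 and 41.0 FPKM (e12.3), 31.0, 30.6 and 30.1 FPKM (e12.4), 34.2, 26.7 and 31.1 FPKM (e20.1) and 31.5, 30.4 and 30.7 FPKM (e21.1). In Tcof1, 11 of the 12 guide libraries lay below every control library, and e12.3 replicate 3 lay among the controls. The log2 fold change of Tcof1 was -0.45 against Renilla (SE 0.08, limma adjusted p = 0.00198) and -0.41 against mock (SE 0.08, limma adjusted p = 0.00472), a mean level 27.1 and 24.8% lower.

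Polr1a encodes the largest subunit of RNA polymerase I. Polr1a stood at 34.8, 40.4 and 43.5 FPKM in Renilla and 39.5, 40.7 and 40.4 FPKM in mock. With the guides Polr1a stood at 34.0, 30.03 and 28.4 FPKM (e12.3), 30.8, 31.3 and 27.8 FPKM (e12.4), 32.9, 24.0 and 33.7 FPKM (e20.1) and 32.01, 30.2 and 21.2 FPKM (e21.1). The groups did not overlap, though Renilla replicate 1 came within 1 FPKM of the highest guide library, and e21.1 replicate 3 was lowest. Polr1a had a log2 fold change of -0.41 against Renilla (SE 0.12, limma adjusted p = 0.0352) and -0.44 against mock (SE 0.12, limma adjusted p = 0.0284). The call against Renilla ended without Renilla replicate 2 (adjusted p = 0.13) or replicate 3 (adjusted p = 0.16), and without e12.3 replicate 2 or e12.4 replicate 3. The call against mock ended without any 1 of the mock libraries.

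Ubtf encodes the upstream binding factor, which sits on the ribosomal DNA and recruits polymerase I. Ubtf stood at 73.9 to 78.7 FPKM in Renilla, 66.6 to 73.3 FPKM in mock and 51.9 to 66.8 FPKM (median 61.7) over the guide libraries. All 12 guide libraries of Ubtf lay below Renilla, and 11 of them below mock. The log2 fold change of Ubtf was -0.31 against Renilla (SE 0.07, limma adjusted p = 0.00772) and -0.18 against mock (SE 0.07, limma adjusted p = 0.126).

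Rrn3, the initiation factor that carries polymerase I to its promoter, also separated without overlap: 31.4 to 33.0 FPKM in Renilla, 31.5 to 32.2 FPKM in mock and 23.1 to 29.6 FPKM (median 28.1) with the guides. Its log2 fold changes of -0.22 and -0.22 missed the threshold (limma adjusted p = 0.0622 and 0.0787). The other subunit genes did not pass it either: Polr1b, the second largest subunit, had -0.26 and -0.32, and Polr1c, a subunit shared with RNA polymerase III, -0.13 and -0.07. Polr1e, another polymerase I subunit, moved least. Polr1e stood at 20.8, 15.7 and 16.2 FPKM in Renilla and 15.4, 15.7 and 16.6 FPKM in mock. With the guides Polr1e stood at 16.9, 14.6 and 19.3 FPKM (e12.3), 14.3, 16.6 and 16.3 FPKM (e12.4), 16.5, 19.6 and 16.4 FPKM (e20.1) and 15.7, 16.4 and 17.7 FPKM (e21.1). The groups overlapped, and the 95% interval of the log2 fold change of Polr1e against Renilla ran from -0.27 to 0.14. The value of -0.06 for Polr1e turned to 0.06 without Renilla replicate 1, and the value against mock was 0.06.

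**Figure D3:**
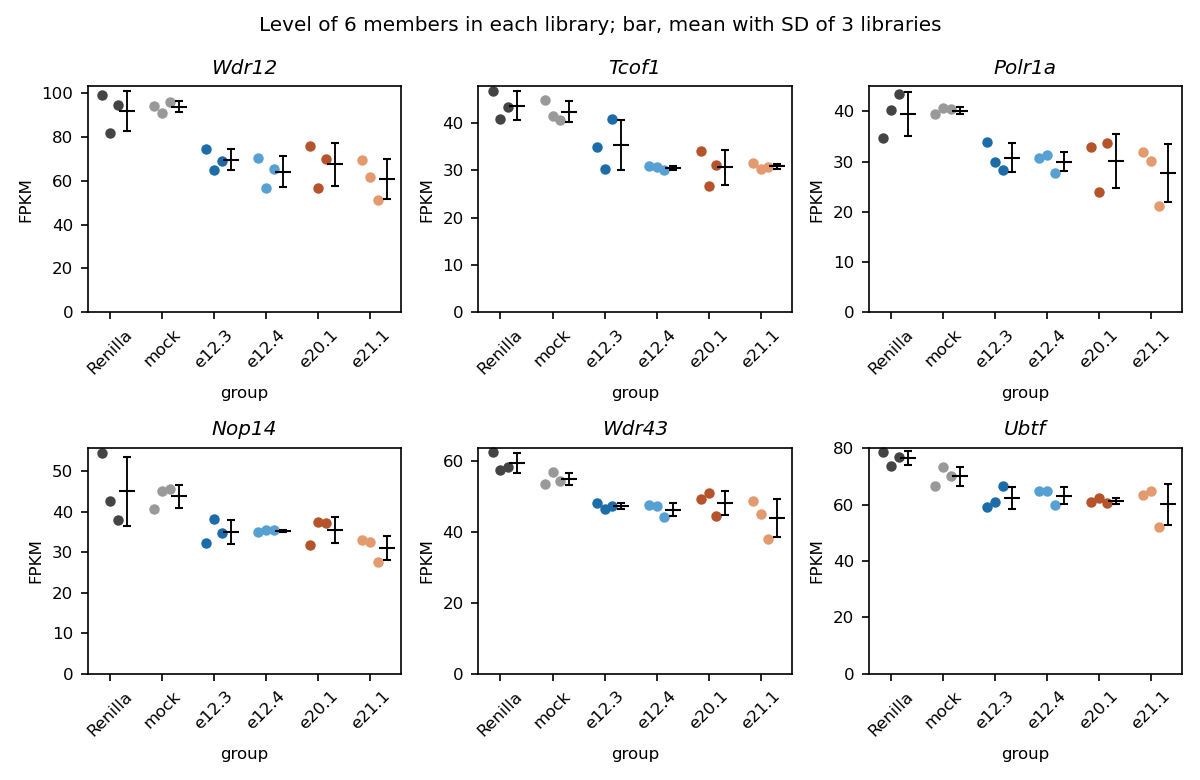
FPKM (y axis, from 0) of Wdr12, Tcof1, Polr1a, Nop14, Wdr43 and Ubtf in each library of the 6 groups (x axis), with the mean and SD of 3 libraries as a bar beside the points. In each panel the 4 guide groups sit lower than the Renilla and mock groups; Tcof1 in e12.3 replicate 3 reaches 41.0 FPKM, within the range of the controls.

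The snoRNP proteins showed no call in either comparison. Against Renilla, 3 of 4 box C/D and 1 of 4 box H/ACA genes had an unadjusted limma p under 0.05, all lower (background 24.4% in both directions). Against mock none of them did (background 21.3%). Box C/D snoRNPs carry the 2′-O-methyltransferase fibrillarin (Fbl) with Nop56 and Nop58, and Rrp9 belongs to the U3 snoRNP. Their 4 log2 fold changes had a median of -0.26 against Renilla and -0.08 against mock. Nop58, the core protein with the most negative value, stood at 443, 327 and 313 FPKM in Renilla and 332, 321 and 298 FPKM in mock. With the guides Nop58 stood at 293, 298 and 287 FPKM (e12.3), 303, 284 and 258 FPKM (e12.4), 289, 364 and 257 FPKM (e20.1) and 287, 274 and 222 FPKM (e21.1). Renilla replicate 1 was the highest library of Nop58 and e20.1 replicate 2 the highest with a guide. The log2 fold change of Nop58 was -0.33 against Renilla (limma adjusted p = 0.0771) and -0.16 against mock (limma adjusted p = 0.474). Nop56 stood at 444, 371 and 377 FPKM in Renilla and 349, 376 and 345 FPKM in mock. With the guides Nop56 stood at 336, 367 and 347 FPKM (e12.3), 355, 364 and 318 FPKM (e12.4), 363, 429 and 309 FPKM (e20.1) and 330, 327 and 307 FPKM (e21.1). The mock and guide libraries of Nop56 overlapped, with a log2 fold change of -0.20 against Renilla and -0.05 against mock.

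Box H/ACA snoRNPs turn uridine into pseudouridine through dyskerin (Dkc1), which works with Gar1, Nhp2 and Nop10. The 4 had the median nearest to 0 of the 6 roles against Renilla, -0.10, and -0.14 against mock. Dkc1 stood at 234, 154 and 137 FPKM in Renilla and 154, 155 and 142 FPKM in mock. With the guides Dkc1 stood at 157, 137 and 135 FPKM (e12.3), 144, 139 and 120 FPKM (e12.4), 149, 123.2 and 122.7 FPKM (e20.1) and 150, 121 and 85.8 FPKM (e21.1). Dkc1 was far higher in Renilla replicate 1 than in any other library, and the remaining control libraries overlapped the guides. Its log2 fold change was -0.38 against Renilla (limma adjusted p = 0.13) and -0.20 against mock (limma adjusted p = 0.507). Nop10 stood at 76.5, 94.0 and 82.7 FPKM in Renilla and 105, 97.9 and 92.2 FPKM in mock. With the guides Nop10 stood at 101, 99.8 and 67.7 FPKM (e12.3), 104, 87.1 and 87.8 FPKM (e12.4), 96.2, 121 and 83.7 FPKM (e20.1) and 101, 85.7 and 62.8 FPKM (e21.1). Nop10 was the 1 gene of the 52 with a positive value against Renilla, 0.10 (95% interval -0.21 to 0.40), and had -0.12 against mock.

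Of the 18 genes of the small subunit processome and small subunit assembly, 7 fell against Renilla (Nop14, Nat10, Wdr43, Wdr46, Tsr1, Utp18 and Utp15) and 2 against mock (Nop14 and Wdr43). The medians were -0.29 and -0.21. Wdr43 is the mouse counterpart of yeast Utp5, a processome protein that binds the precursor early. Wdr43 stood at 62.7, 57.6 and 58.3 FPKM in Renilla and 53.7, 56.9 and 54.5 FPKM in mock. With the guides Wdr43 stood at 48.3, 46.6 and 47.4 FPKM (e12.3), 47.6, 47.3 and 44.3 FPKM (e12.4), 49.4, 51.1 and 44.6 FPKM (e20.1) and 48.7, 45.3 and 38.0 FPKM (e21.1). Every guide library of Wdr43 lay below every control library, and Renilla lay above mock. The log2 fold change of Wdr43 was -0.35 against Renilla (SE 0.07, limma adjusted p = 0.00324) and -0.24 against mock (SE 0.07, limma adjusted p = 0.0416). The call against Renilla held in all 34 alternatives run and that against mock in 18 of 33, where it ended without any 1 of the mock libraries (adjusted p 0.11, 0.21 and 0.15), Renilla replicate 2 or 3, e12.3 replicate 1 or 2, any 1 of the e12.4 libraries, or e20.1 replicate 1 or 3.

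Nop14 encodes a processome protein that escorts the precursor of the small subunit. Nop14 stood at 54.4, 42.7 and 37.8 FPKM in Renilla and 40.5, 45.04 and 45.7 FPKM in mock. With the guides Nop14 stood at 32.2, 38.0 and 34.7 FPKM (e12.3), 35.04, 35.4 and 35.4 FPKM (e12.4), 31.7, 37.5 and 37.3 FPKM (e20.1) and 33.0, 32.5 and 27.6 FPKM (e21.1). The guide libraries of Nop14 lay below mock without overlap, while e12.3 replicate 2 lay just above Renilla replicate 3. Nop14 had a log2 fold change of -0.37 against Renilla (SE 0.09, limma adjusted p = 0.0171) and -0.35 against mock (SE 0.09, limma adjusted p = 0.0292). Without Renilla replicate 1 the first fell short of the threshold (log2 fold change -0.23, adjusted p = 0.16), and the second did so without any 1 of the mock libraries.

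Utp20, a large scaffold protein of the processome, had the most negative value of this role and no call. Utp20 stood at 27.0, 24.1 and 22.5 FPKM in Renilla and 21.5, 24.96 and 22.9 FPKM in mock. With the guides Utp20 stood at 19.4, 19.2 and 14.5 FPKM (e12.3), 17.7, 22.2 and 17.7 FPKM (e12.4), 21.4, 21.0 and 20.3 FPKM (e20.1) and 17.8, 19.2 and 8.93 FPKM (e21.1). The lowest guide libraries of Utp20 were replicate 3 of e21.1 and of e12.3, the 2 that stand apart on component 2. Its log2 fold change was -0.43 against Renilla (SE 0.16, limma adjusted p = 0.104). Wdr3, another processome protein, had the value nearest to 0. Wdr3 stood at 40.5, 42.6 and 40.3 FPKM in Renilla and 40.9, 40.9 and 42.6 FPKM in mock. With the guides Wdr3 stood at 42.4, 34.4 and 39.3 FPKM (e12.3), 37.3, 32.4 and 34.0 FPKM (e12.4), 33.5, 41.9 and 36.4 FPKM (e20.1) and 38.6, 38.1 and 34.2 FPKM (e21.1). In Wdr3, 10 of the 12 guide libraries lay below all controls and e12.3 replicate 1 and e20.1 replicate 2 lay among them, with a log2 fold change of -0.16 against Renilla and -0.17 against mock. Among the rest of this role, Nat10, the cytidine acetyltransferase of ribosomal RNA, fell from 56.1 ± 1.34 FPKM in Renilla (SD, n = 3) to 43.4 ± 5.06 FPKM (SD, n = 12), with 53.1 ± 3.98 FPKM in mock (SD, n = 3). Here and below, n = 12 pools the 3 libraries of each of the 4 guides. Such an SD mixes the spread between guides with that between libraries and is not that of 12 replicates of 1 condition. Without any 1 of the Renilla libraries Nat10 was not called. Ltv1, a late small subunit export factor, had -0.17 against Renilla and 0.02 against mock, neither called.

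Of the 15 genes of large subunit assembly, 4 fell against Renilla (Wdr12, Rrs1, Noc3l and Nle1) and 1 against mock (Wdr12), with medians of -0.30 and -0.20. Wdr12 forms the PeBoW complex with Pes1 and Bop1, which is needed to process the precursor of the large subunit RNAs. Wdr12 stood at 98.8, 81.6 and 94.6 FPKM in Renilla and 94.1, 90.8 and 95.9 FPKM in mock. With the guides Wdr12 stood at 74.5, 65.0 and 68.9 FPKM (e12.3), 70.5, 56.4 and 65.5 FPKM (e12.4), 75.8, 56.5 and 70.1 FPKM (e20.1) and 69.5, 61.8 and 51.2 FPKM (e21.1). All 12 guide libraries of Wdr12 lay below all 6 controls, with a mean 28.6% under Renilla and 30.1% under mock. Against Renilla the log2 fold change of Wdr12 was -0.48 (SE 0.10, limma adjusted p = 0.00492) and -0.52 against mock (SE 0.10, limma adjusted p = 0.00321). Both calls held in every alternative run (34 and 33).

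The partners of Wdr12 in the complex were not called. Pes1 stood at 76.3, 106 and 89.8 FPKM in Renilla and 107, 107 and 102 FPKM in mock. With the guides Pes1 stood at 98.6, 89.3 and 79.2 FPKM (e12.3), 80.8, 86.4 and 77.0 FPKM (e12.4), 90.6, 71.4 and 82.8 FPKM (e20.1) and 88.2, 91.1 and 74.2 FPKM (e21.1). Pes1 overlapped with Renilla, whose replicate 1 was among the lowest libraries, and lay below mock without overlap. Its log2 fold change was -0.10 against Renilla (95% interval -0.31 to 0.11) and -0.32 against mock (limma adjusted p = 0.0518). Bop1 had 71.8 ± 2.87 FPKM in Renilla, 70.7 ± 2.30 FPKM in mock (SD, n = 3 each) and 64.8 ± 8.22 FPKM with the guides (SD, n = 12), and its log2 fold changes were -0.16 and -0.13. Differences between the 3 partners were not tested. Noc3l, a component of early large subunit particles, was at 14.1 ± 0.016 FPKM in Renilla and 13.9 ± 0.142 FPKM in mock (SD, n = 3 each) and at 11.1 ± 1.37 FPKM with the guides (SD, n = 12). Rrs1, which helps to bring the small ribosomal RNA of the large subunit into the particle, had a log2 fold change of -0.41 against Renilla (limma adjusted p = 0.0157) and -0.19 against mock (limma adjusted p = 0.311). Without Renilla replicate 1 the value of Rrs1 against Renilla was -0.28 (adjusted p = 0.15).

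Of the 4 nucleolar scaffold, chaperone and helicase genes, 1 fell against Renilla (Ncl) and none against mock. The median of the 4 was -0.33 against Renilla and -0.19 against mock. Ncl encodes nucleolin, an abundant RNA-binding protein of the nucleolus. Ncl stood at 830, 591 and 593 FPKM in Renilla and 596, 579 and 545 FPKM in mock. With the guides Ncl stood at 523, 549 and 487 FPKM (e12.3), 507, 529 and 481 FPKM (e12.4), 524, 604 and 484 FPKM (e20.1) and 516, 503 and 379 FPKM (e21.1). Renilla replicate 1 was far above the other Renilla libraries of Ncl, and e20.1 replicate 2 lay among the controls. Ncl had a log2 fold change of -0.39 against Renilla (SE 0.11, limma adjusted p = 0.0335) and -0.18 against mock (limma adjusted p = 0.389). Without Renilla replicate 1 that of -0.39 became -0.23 (adjusted p = 0.26), and without e12.4 replicate 3 the adjusted p was 0.056. Nolc1, a chaperone of snoRNPs, stood at 132, 117 and 120 FPKM in Renilla and 125, 119 and 112 FPKM in mock. With the guides Nolc1 stood at 109, 110 and 113 FPKM (e12.3), 111, 105 and 92.1 FPKM (e12.4), 115, 100 and 93.1 FPKM (e20.1) and 114, 97.5 and 86.6 FPKM (e21.1). All guide libraries of Nolc1 lay below Renilla and 9 of 12 below mock, and the log2 fold change of -0.24 against Renilla missed the threshold (limma adjusted p = 0.0806). Npm1, nucleophosmin, was the most abundant of the 52 genes at 2088 ± 532 FPKM in Renilla, 1807 ± 119 FPKM in mock (SD, n = 3 each) and 1582 ± 204 FPKM with the guides (SD, n = 12), and was not called.

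The control groups were compared with each other as well. Renilla against mock gave no call among the 52 genes or among all tested genes with limma (background 0%), and none of the 52 had an unadjusted p under 0.05 (1.10% of all tested genes, 127). Yet 42 of the 52 values of Renilla minus mock lay above 0, with a median of 0.09 beside 0.00 for all tested genes. The highest were those of Rrs1 (0.22) and Ncl (0.21) and the lowest those of Pes1 (-0.22) and Nop10 (-0.22). Without Renilla replicate 1 the median was 0.00.

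Taken 1 guide at a time, the medians of the 52 genes were below 0 with every guide and both controls. They were -0.22 against Renilla and -0.14 against mock for e12.3, and -0.27 and -0.19 for e12.4. For e20.1 they were -0.25 and -0.16, and for e21.1 -0.34 and -0.29. The median of e21.1 against mock was -0.16 without e21.1 replicate 3. Without Renilla replicate 1 the medians against Renilla were -0.14 for e12.3 and -0.16 for e20.1. The calls were fewer. Against Renilla, e12.3 gave 0 calls of the 52 (background 0.173% lower; 16 of the 52 at an unadjusted p under 0.05, as 13.3% of all tested genes), e12.4 gave 3 lower (background 1.52%), e20.1 gave 2 (background 1.06%) and e21.1 gave 17 (background 2.45%). Against mock the guides gave 0 (background 0.121%; 8 of the 52 at an unadjusted p under 0.05, as 10.7% of all tested genes), 2 (background 1.26%), 2 (background 0.909%) and 7 (background 1.35%). At an unadjusted p under 0.05, e21.1 had 35 of the 52 against Renilla (background 23.0%) and 24 against mock (background 19.3%). With e12.3 and e21.1 all members at this threshold were lower, while these backgrounds count both directions. Of the 11550 tested genes, 505 were lower with e12.3 and 1161 with e21.1 against Renilla, and 316 and 846 against mock. No gene of the 52 was called higher with any guide, where 3.03, 5.57, 4.61 and 7.06% of all tested genes rose against Renilla and 2.82, 5.22, 4.41 and 5.91% against mock, in the same order of guides. Tcof1 fell with e12.4, e20.1 and e21.1 against both controls. Wdr12 fell with the same 3 guides against mock and with e12.4 and e21.1 against Renilla. Ubtf fell with e20.1 and e21.1 against Renilla, and Wdr43 with e12.4 and e21.1. Against Renilla the calls of Tcof1 held without any 1 library, while those of Wdr12 and Wdr43 with e12.4 and of Ubtf with e20.1 and e21.1 ended without Renilla replicate 1. Against mock the calls of Tcof1 with all 3 guides ended without mock replicate 1. The other 13 genes called against Renilla were called with e21.1 alone: Polr1a, Heatr1, Wdr46, Nop14, Utp20, Nat10, Tsr1, Noc3l, Nop2, Rrs1, Nle1, Gnl3 and Ncl.

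**Figure D4:**
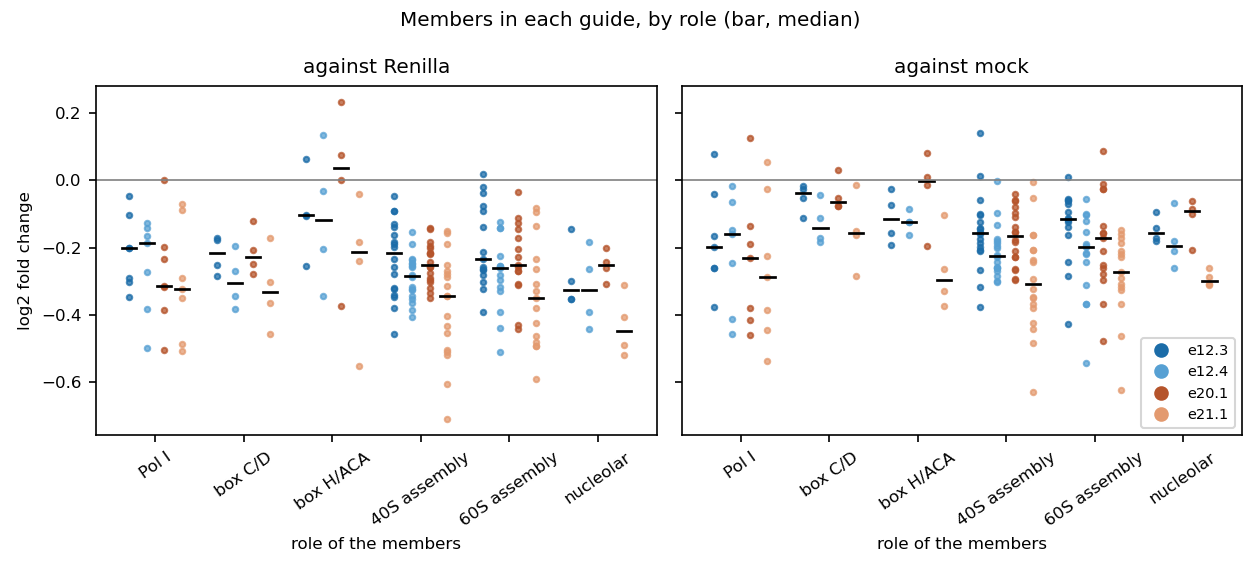
Log2 fold change (y axis) of each of the 52 genes with each guide (colours) against Renilla (left) and mock (right), by role (x axis), with the median of each set as a bar. Nearly all points lie below 0, and box H/ACA genes with e20.1 have medians near 0 (0.04 against Renilla and 0.00 against mock).

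The larger count of e21.1 rests on few libraries. It was 4 without e21.1 replicate 3, 5 without Renilla replicate 1 and 11 without Renilla replicate 2, and 8 without the libraries apart on component 2. The count of 7 against mock was 2 without e21.1 replicate 3, mock replicate 2 or mock replicate 3, 3 without mock replicate 1 and 4 without e12.4 replicate 2. The guides were not shown to differ from each other: an F-test over the 4 guide groups called none of the 52 genes and none of all tested genes (background 0%), and gave an unadjusted p under 0.05 to none of the 52 and to 2.06% of all tested genes (238). The pair e20.1 and e21.1 against the pair e12.3 and e12.4, grouped by the start of their names, called none either with limma (0% of all tested genes, and 0 of the 52 at an unadjusted p under 0.05 beside 1.55% of all tested genes), with a median of -0.06 over the 52. The 95% intervals of the pair difference ran from -0.45 at the lowest (Dkc1) to 0.34 at the highest (Nhp2).

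Averaged over the 52 genes, each of the 12 guide libraries lay below each of the 6 control libraries. The mean log2 difference from the 2 control groups was 0.18, -0.01 and -0.06 in Renilla and -0.04, 0.00 and -0.07 in mock. In the e12.3 libraries it was -0.17, -0.17 and -0.19, and in the e12.4 libraries -0.20, -0.21 and -0.29. In the e20.1 libraries it was -0.16, -0.15 and -0.28, and in the e21.1 libraries -0.17, -0.26 and -0.51. Renilla replicate 1 was highest and e21.1 replicate 3 lowest. The same 2 libraries were the extremes of the S phase list, at 0.26 and -0.51. In all 6 groups replicate 1 had the highest mean of the S phase list and replicate 3 the lowest, and replicate 3 also had the lowest mean of the 52 genes. The part of this in the results was not tested. The S phase list gave 0 of 19 called against Renilla, where 3.21% of all tested genes fell and 7.77% rose, and a median of -0.03. Its medians against Renilla were -0.04 with e12.3, 0.01 with e12.4, 0.06 with e20.1 and -0.14 with e21.1. Intervals of single genes were wide, such as the 95% interval of Mcm7 (-0.60 to 0.25) and of Pcna (-0.27 to 0.57). The G2/M list gave 1 lower of 16 against Renilla (Cenpe, a mitotic kinesin), where 3.21% of all tested genes fell, and a median of -0.18. Against mock 0 of 16 were called with limma (2.16% of all tested genes fell), with a median of -0.22. There 5 of the 16 had an unadjusted limma p under 0.05, all lower, as had 1019 of the 11550 tested genes in that direction.

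**Figure D5:**
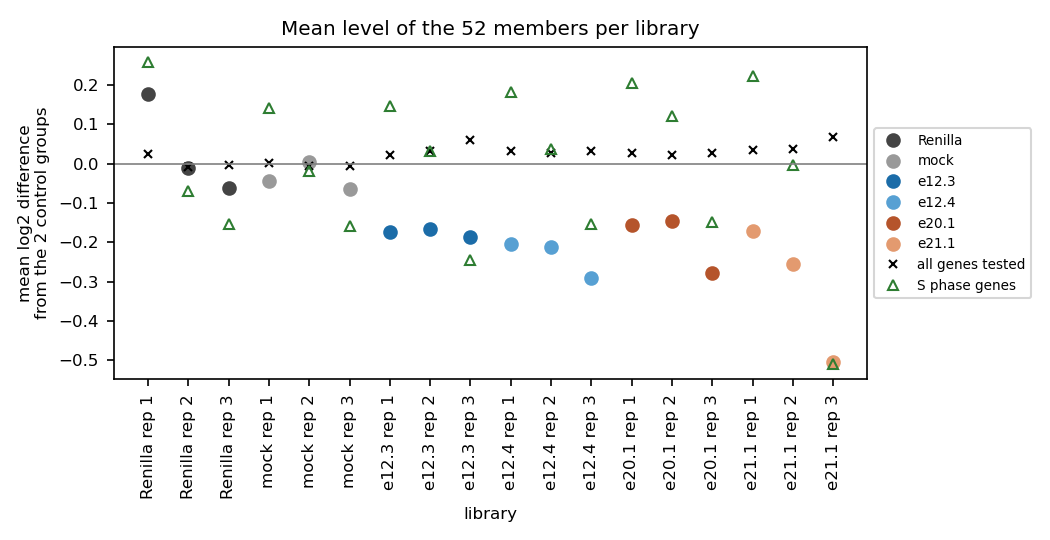
Mean log2 difference from the Renilla and mock groups (y axis) in each library (x axis) over the 52 genes (filled circles, coloured by group), over all tested genes (crosses) and over 19 S phase genes (triangles). The 12 guide libraries lie between -0.15 and -0.51 for the 52 genes, below all 6 control libraries, while the crosses stay near 0.

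Other genes of the pathway were examined as a list of 104 tested genes that are not among the 52. Of these, 15 fell against Renilla and none rose, with a median of -0.23, and 10 fell against mock and none rose, with a median of -0.13. Among all tested genes, 3.21% fell against Renilla and 2.16% against mock. The 4 with the smallest p against Renilla were Mak16, Nol8, Utp14a and Pwp2. Mak16, a large subunit assembly factor, went from 51.6 ± 3.56 FPKM in Renilla and 47.0 ± 1.23 FPKM in mock (SD, n = 3 each) to 42.4 ± 1.95 FPKM (SD, n = 12), a log2 fold change of -0.28 against Renilla (limma adjusted p = 0.00324). Nol8, a nucleolar RNA-binding protein, went from 19.9 ± 0.256 and 17.8 ± 0.317 FPKM to 15.0 ± 1.48 FPKM (-0.39 on the log2 scale against Renilla, limma adjusted p = 0.00499). Neither was called against mock (-0.14 for Mak16, limma adjusted p = 0.124, and -0.24 for Nol8, limma adjusted p = 0.0829). Both had all 12 guide libraries below all 6 controls (background 1.59%), as did the processome genes Utp14a and Pwp2. These 4 were picked by their p in the same libraries, so their separation is no further evidence. Utp14a had a log2 fold change of -0.26 against Renilla and -0.25 against mock, and Pwp2 -0.34 and -0.27, all called.

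Myc itself did not pass the test. Myc stood at 104, 106 and 115 FPKM in Renilla, 98.2, 106 and 112 FPKM in mock and 88.0 to 152 FPKM (median 103) over the guide libraries, where the highest were e12.3 replicate 3 and e21.1 replicate 3 at 152 and 134 FPKM. The groups overlapped, and the 95% interval of the log2 fold change of Myc ran from -0.33 to 0.24 against Renilla and from -0.28 to 0.29 against mock. Of 11 tested genes of the MYC and MAX network, 1 was called against each control, near the share of all tested genes. Of all tested genes, 7.77% rose and 3.21% fell against Renilla, and 6.84% rose and 2.16% fell against mock. The 1 called was Mxd1, a MAX partner that opposes MYC. Mxd1 rose from 3.49 ± 0.366 FPKM in Renilla (SD, n = 3) to 6.22 ± 0.798 FPKM (SD, n = 12; log2 fold change 0.68, limma adjusted p = 0.000649). A list of p53 target genes, with the ribosomal protein genes Rpl5 and Rpl11, had 4 of 10 tested genes higher against Renilla. The same 4 rose against mock: Cdkn1a, Mdm2, Trp53inp1 and Zmat3. Of all tested genes, 7.77% rose against Renilla and 6.84% against mock. The uncalled log2 fold changes against Renilla were 0.63 (Phlda3), 0.24 (Ccng1), 0.08 (Rpl5), 0.01 (Aen), -0.12 (Rpl11) and -0.18 (Sesn2). The part of ribosome assembly in these values was not tested. Cdkn1a encodes p21, an inhibitor of cyclin-dependent kinases, and rose from 70.5 ± 5.81 FPKM in Renilla and 68.9 ± 1.45 FPKM in mock (SD, n = 3 each) to 132 ± 18.3 FPKM (SD, n = 12; log2 fold change 0.89, limma adjusted p = 2.45e-05 against Renilla). Mdm2, the p53 ubiquitin ligase, rose from 44.6 ± 2.19 FPKM in Renilla to 57.2 ± 4.99 FPKM (0.35 on the log2 scale, limma adjusted p = 0.00706).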

How the data were processed

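Deposited by the authors were FPKM values of 18 libraries. The submitters' processing notes name bcl2fastq 2.22.0.422, Salmon 0.13.0, mm10, DESeq2 1.22.1 and R 3.5.3. Per the labels' protocols, TRIzol RNA was selected for poly(A) and made into directional libraries. Since FPKM are not counts, log2(FPKM + 1) was fitted with limma-trend (version 3.58.1 in R 4.3.3) as 6 group means over all 18 libraries, in the 11550 genes whose mean reached 1 FPKM. Fold changes are on that scale, and p-values were adjusted over all tested genes. FPKM times length rises in steps of 1 read, which gave the depth from 1473 genes with 1 transcript (120 low values per library, 99.2 to 100.0% of them within 0.1 of a whole read). No 2 libraries held identical values. The script was tested on simulated data. Members, lists and tests were chosen with earlier results of these data known. Values in all 18 libraries are given for members called against both controls and for the extremes of each role, and Ubtf and other genes outside these rules were picked after their values were seen. Promoters come from RefSeq (GRCm38.p6), and tables and plots were made with Python 3.11.15, pandas 2.3.3 and matplotlib 3.10.9.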

Additional observations from a re-analysis of the deposited data

How the results depend on the processing

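Alternatives were other pseudocounts, filters and scalings, the replicate block, array weights, fewer groups, and each library or guide left out; leaving out the libraries that stand apart was chosen after seeing the data. Wdr12, Tcof1, Wdr43 and Ubtf fell against Renilla in all 34 alternatives, and Wdr12 and Tcof1 against mock in all 33. The cause of the shifts that follow was not tested. Libraries of the same replicate number shared part of their deviations, since 17 of 18 libraries correlated best with their own number. The median correlation of deviations was 0.18, 0.11 and 0.05 over 15 pairs a number, with negative values. The labels name no shared batch, and the main model held no term for the replicate number. Its counts are therefore set beside those with the replicate block below.

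Members lower against Renilla (15 with the 4 guides; 0, 3, 2 and 17 in order with e12.3 and e12.4 and with e20.1 and e21.1) were 28, 2, 5, 7 and 27 with the replicate block, 39, 13, 37, 22 and 22 with array weights, 22, 3, 13, 10 and 8 without the 2 libraries apart on component 2, 5, 0, 2, 0 and 10 without those on component 3, and 16, 5, 12, 5 and 12 without all 4. With the 4 guides there were 9 without a filter, 8 with only the groups compared, 23 with pooled controls and 8 without guide e21.1. With only the groups compared, e20.1 and e21.1 gave 0 each, and e20.1 gave 1 with median-ratio scaling. Leaving out each library gave 5 to 18, 0 to 4, 1 to 8, 1 to 6 and 4 to 23.

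Members lower against mock (5; 0, 2, 2 and 7) were 10, 1, 2, 2 and 14 with the replicate block, 23, 6, 26, 12 and 13 with weights, 11, 0, 6, 6 and 3 without the libraries on component 2, 7, 0, 3, 0 and 11 without those on component 3, and 19, 5, 16, 9 and 10 without all 4. Only the groups compared gave 15 with e12.4, 0 with e20.1 and 2 with e21.1, no filter gave 1 with e20.1, and leaving out guide e21.1 gave 2 with the others together. Leaving out each library gave 2 to 8, 0, 0 to 3, 0 to 2 and 2 to 10.

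Medians against Renilla with the 4 guides were -0.32 to -0.17 over all alternatives (-0.17 without all 4 libraries that stand apart). No called member changed sign. Uncalled values near 0 did. Against Renilla, leaving out each library gave -0.14 to 0.056 for Polr1e, -0.25 to 0.054 for Nhp2, -0.26 to 0.0075 for Nop16, -0.18 to 0.032 for Gar1 and -0.22 to 0.017 for Pes1. With array weights Polr1e had 0.039 and Ltv1 0.018, without the libraries on component 2 Gar1 had 0.0089, without those on component 3 Polr1e had 0.036, Nop16 0.0073 and Nop10 -0.0047, without all 4 Polr1e had 0.0021, Nhp2 0.020 and Ltv1 0.011, and with pooled controls Nop10 had -0.013. Against mock, leaving out each library gave -0.0071 to 0.059 for Ltv1 and -0.10 to 0.00020 for Nhp2, and Ltv1 had -0.022 without guide e12.3. Upper-quartile factors were 0.985 to 1.055 and gave 11 calls against Renilla.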
